A study of Mus musculus with 64 samples.

Results

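The mitochondrial ribosome is the particle that translates the messenger RNAs of the mitochondrial genome, all of which code for subunits of the respiratory chain and of ATP synthase. Its RNAs are made from mitochondrial DNA, whereas all of its proteins are encoded in the nucleus, made in the cytosol and imported. The genes described here are the nuclear protein-coding genes whose symbol in the GRCm38 mouse annotation begins with Mrpl (large subunit) or Mrps (small subunit) followed by a digit. There are 78 of them among 55536 annotated genes, 49 named Mrpl and 29 named Mrps, and below they are called the members. The names are historical: the products of Mrps30 and Mrps18a are known to sit in the large subunit of the mammalian particle. Membership rests on the symbol alone, and whether each product is part of the particle was not checked.

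RNA was sequenced from 4 haematopoietic populations sorted from the fetal livers of C57BL/6 mice aged 13 to 14 days post coitum (1 CMP library is labelled 14.5 days). LSK cells (lineage-negative, Sca1-positive, c-Kit-positive) hold the stem and multipotent cells, and CMP, GMP and MEP are the gates for common myeloid, granulocyte-monocyte and megakaryocyte-erythroid progenitors. Each population came from wild-type fetuses (WT), from fetuses with 1 disrupted copy of Smarcd2 (Smarcd2 +/-, HET) and from fetuses with both copies disrupted (Smarcd2 -/-, KO). Smarcd2 encodes a subunit of the SWI/SNF (BAF) chromatin remodelling complexes. The LSK set had 5 WT, 9 HET and 9 KO libraries, the CMP set 3, 7 and 4, the GMP set 3, 7 and 3, and the MEP set 3, 7 and 4. Each LSK genotype included libraries of both sexes, and no sex was determined for the libraries of the other populations. How the allele was made is not stated in the labels. Psmc5, a proteasome subunit gene beside Smarcd2, was lower in KO as well, by a log2 fold change of -1.53 in LSK (SE 0.07, edgeR adjusted p = 2.06e-15) and -0.94 in CMP (adjusted p = 0.00425), and was not called in GMP or MEP (-0.31 and -0.21). In LSK and CMP the loss of Smarcd2 and the lower Psmc5 cannot be told apart. The labels do not say whether libraries came from separate fetuses, and p-values then measure only the spread between libraries.

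Levels are in CPM, a gene's reads as a share of all reads assigned to genes and scaled by edgeR's TMM factors, and a change was called when edgeR's quasi-likelihood test gave an adjusted p under 0.05 over all genes tested. Libraries held between 1006090 and 24069833 gene reads. Smarcd2 itself lay between 49.4 and 70.4 CPM in LSK WT libraries and between 0.845 and 1.94 CPM in LSK KO libraries, and no KO library of any population went above 1.94 CPM. In 8 of the 9 LSK HET libraries it lay between 21.9 and 40.5 CPM, but the library labelled HET 20-5 had 67.4 CPM, above 4 of the 5 WT libraries, which goes against its label. In CMP, GMP and MEP every HET library had less Smarcd2 than every WT library. Of the progenitor KO libraries, 2 in each population (13 and 15) carry the title series M34, which no WT or HET library has, so that for them series and genotype cannot be told apart. 76 members passed the filter on low counts in each population. Mrpl33 was not analysed here, because its annotated identifier is not matched in the count tables. Mrpl53 was listed only for LSK cells, with 0 reads in all 23 libraries. 88.0% of the exon bases of Mrpl53 are shared with other annotated genes.

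In WT LSK cells the members together took 0.463% to 0.527% of gene reads, and their mean level had a median of 58.5 CPM over the 77 listed genes. Per kilobase of main transcript, which allows genes to be compared, the 5 highest in LSK WT were Mrpl42 with 121 ± 7.15 CPM per kb, Mrps17 with 118 ± 8.22, Mrpl18 with 102 ± 11.5, Mrpl13 with 101 ± 3.26 and Mrpl20 with 99.8 ± 9.25 (SD, n = 5). Each neighbour in this order overlapped with the next within 1 SD of the means, and the differences were not tested. The lowest apart from Mrpl53 were Mrps34 with 4.94 ± 1.36 and Mrpl48 with 6.82 ± 0.629 CPM per kb (SD, n = 5). Mrps34 shares 77.8% of its exon bases with its neighbours Nme3 and Mapk8ip3, so its low level is uncertain.

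The same genes headed the order in the progenitors. Mrpl42 had the highest WT level per kb in all 4 populations, with 250 ± 47.0 in CMP, 363 ± 158 in GMP and 279 ± 67.5 CPM per kb in MEP (SD, n = 3). Mrpl18, Mrpl20 and Mrps17 were among the 5 highest in each population, and Mrps18c took the remaining place in CMP (127 ± 26.8), GMP (205 ± 87.2) and MEP (147 ± 45.8). Mrps34 was the lowest in each progenitor population, followed by Mrps25 and Mrps11 in CMP, by Mrps5 and Mrps25 in GMP and by Mrps25 and Mrpl17 in MEP. Mrps25 shares 69.8% of its exon bases with Nr2c2 on the other strand, so its low level is uncertain as well. Across the 76 members the order of levels per kb had a Spearman rho between 0.789 (LSK and GMP) and 0.95 (CMP and MEP), given as a description of genes that share libraries. The order depends on which transcript is taken as the gene's length: with the union of all annotated exons Mrpl18 ranked 1 and Mrpl42 ranked 41 of 77 in LSK, and Mrps17 ranked 58.

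**Figure D1:**
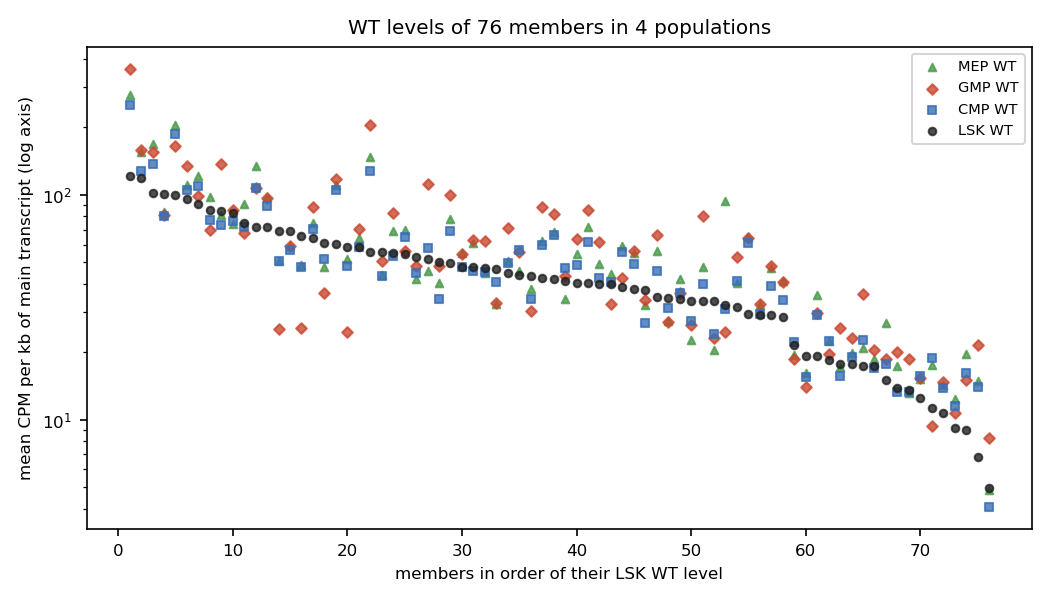
Mean WT level in CPM per kb of main transcript (log axis) for 76 members in LSK (5 libraries), CMP, GMP and MEP (3 libraries each), in the order of the LSK level; Mrpl53, listed at 0, is left out. Mrpl42 is placed first by its LSK level and also has the highest value in CMP, GMP and MEP. The GMP values scatter most around the LSK order.

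Loss of Smarcd2 in LSK cells was accompanied by lower levels of many members. 33 of the 76 members tested (43.4%) fell and none rose, where 9.28% of all 13878 genes tested fell. The median log2 fold change of the members was -0.26, which is 16.6% lower, against 0.01 for all genes, and 74 of 76 members lay below 0, as did 48.0% of all genes. The changes were small, from -0.61 for Mrpl52 to 0.27 for Mrpl23, with a median standard error of 0.10. Split by name, which is not always the subunit, both sets shared in it: 20 of 47 Mrpl genes fell (median -0.25) and 13 of 29 Mrps genes fell (median -0.30).

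The 3 members with the smallest p in this comparison encode large subunit proteins. Mrpl3 (ENSMUSG00000032563, GRCm38 chromosome 9, 105053239 to 105079888) had 176, 168, 177, 178 and 160 CPM in the WT libraries. In the 9 KO libraries its lowest value was 114, its median 125 and its highest 130 CPM, and in the 9 HET libraries these were 122, 138 and 172. No KO value reached the lowest WT value, and the log2 fold change of Mrpl3 was -0.49 (SE 0.07, edgeR adjusted p = 4.99e-05).

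Mrpl20 (chromosome 4, 155802878 to 155809975) had 84.2, 73.5, 66.2, 81.6 and 75.7 CPM in WT libraries. The KO libraries ranged from 42.9 over a median of 51.5 to 58.3 CPM, again without overlap with WT, and the HET libraries from 50.4 over 67.4 to 73.8. Its log2 fold change was -0.60 (SE 0.09, edgeR adjusted p = 7.77e-05). Mrpl16 (chromosome 19, 11770391 to 11774960) had 51.4, 51.4, 56.5, 56.6 and 38.1 CPM in WT and 28.4, 33.8 and 39.6 as lowest, median and highest in KO, so that 8 of the 9 KO libraries lay below all WT libraries. Its log2 fold change was -0.58 (SE 0.10, edgeR adjusted p = 0.000257).

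The other 7 of the 10 largest falls followed the same order of genotypes. Mrps15 had 102, 80.9, 82.9, 101 and 81.0 CPM in WT and 53.8 to 80.1 CPM in KO, a log2 fold change of -0.45 (SE 0.10). Mrps24 had 34.5 to 43.7 CPM in WT and 21.8 to 32.7 CPM in KO, and Mrps28 had 43.9 to 49.0 against 29.1 to 39.5 CPM. Mrps22, which has no bacterial counterpart, had 97.6 to 108 CPM in WT and 64.6 to 93.9 in KO, and Mrps30 had 119 to 138 against 72.3 to 111. In these 5 genes the KO and WT libraries did not overlap. Mrpl12, the counterpart of the bacterial stalk protein and known also to bind the mitochondrial RNA polymerase, overlapped in part: WT libraries had 41.0 to 56.2 and KO libraries 29.0 to 44.8 CPM, a log2 fold change of -0.43 (SE 0.10). Mrpl52 had the largest fold change and the lowest level of the 10, with 9.24 to 18.6 CPM in WT and 6.41 to 13.2 CPM in KO (-0.61, SE 0.18, edgeR adjusted p = 0.0173).

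**Figure D2:**
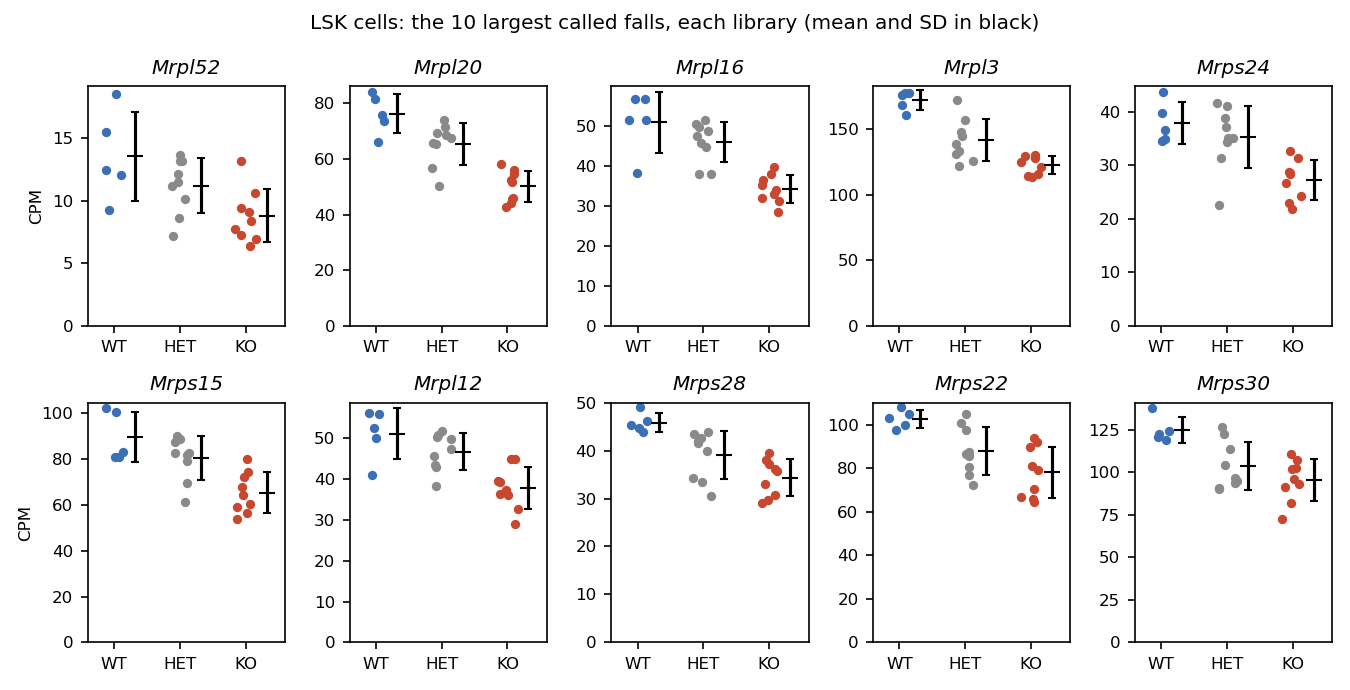
Level in CPM of the 10 members with the largest called falls in LSK KO cells, one point a library, for 5 WT, 9 HET and 9 KO libraries, with the mean and SD beside each group. HET means lie between those of the other groups. HET libraries overlap with KO libraries for all 10 members. They overlap with WT libraries for all but Mrps28, whose 9 HET libraries all lie below the WT libraries. For Mrpl3 all KO libraries (114 to 130 CPM) lie below all WT libraries (160 to 178 CPM).

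The KO and WT libraries were fully separated, with every KO value the lower, for 18 of the 76 members, and for 4.01% of all genes tested. The 2 members above 0 were Mrpl23 (5 WT libraries at 4.79 to 7.54 CPM, KO median 7.84 CPM, adjusted p = 0.161) and Mrpl24 (log2 fold change 0.01). The members on chromosome 11, where Smarcd2 lies, gave 6 of 11 that fell (median -0.32), and those on other chromosomes 27 of 65 (median -0.25); the difference was not tested. Those 6 were Mrpl58, whose product is a peptidyl-tRNA hydrolase built into the large subunit, at 9.13 Mb from Smarcd2, Mrps7 at 9.33 Mb, Mrpl38 at 9.86 Mb, Mrpl12 at 14.2 Mb, Mrps23 at 18.1 Mb and Mrps24 at 100.6 Mb. Mrpl45, known to tether the particle to the inner membrane, was the nearest at 8.93 Mb and was not called, nor were Mrpl10 (9.21 Mb), Mrpl27 (11.6 Mb), Mrpl55 (47.1 Mb) and Mrpl22 (48.1 Mb).

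Sequence before the RefSeq start is shown for 5 of the members with the largest falls, with and without matches to known motifs. Each line gives the 150 bases before that start, from the RefSeq promoter windows on GRCm38.p6, 5′ to 3′ on the gene's strand. Capitals mark matches to 1 of 5 motifs searched on both strands.
Mrpl3: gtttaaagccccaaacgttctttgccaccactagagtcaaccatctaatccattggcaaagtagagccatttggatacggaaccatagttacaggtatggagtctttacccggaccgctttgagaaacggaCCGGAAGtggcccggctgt
Mrpl20: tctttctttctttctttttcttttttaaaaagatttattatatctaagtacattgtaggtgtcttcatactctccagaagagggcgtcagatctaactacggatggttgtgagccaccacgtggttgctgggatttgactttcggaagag
Mrpl16: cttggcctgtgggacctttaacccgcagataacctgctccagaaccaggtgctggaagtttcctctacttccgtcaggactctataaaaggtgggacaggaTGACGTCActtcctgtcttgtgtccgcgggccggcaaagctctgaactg
Mrps22: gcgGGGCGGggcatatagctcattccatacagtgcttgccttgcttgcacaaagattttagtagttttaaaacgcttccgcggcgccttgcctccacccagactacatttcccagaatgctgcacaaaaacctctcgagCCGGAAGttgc
Mrpl52: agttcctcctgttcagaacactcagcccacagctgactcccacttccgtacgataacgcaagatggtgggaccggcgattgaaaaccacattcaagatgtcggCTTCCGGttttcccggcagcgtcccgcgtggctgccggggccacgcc

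The windows are chr9:105053118-105053267 (plus strand) for Mrpl3, chr4:155802728-155802877 (plus) for Mrpl20, chr19:11770265-11770414 (plus) for Mrpl16, chr9:98601680-98601829 (minus) for Mrps22 and chr14:54426759-54426908 (plus) for Mrpl52. The ETS family core CCGGAAG, read by factors such as GABP, stands in the windows of Mrpl3, Mrps22 and Mrpl52 (on the minus strand there), the Sp1 motif GGGCGG also in that of Mrps22, the CREB motif TGACGTCA in that of Mrpl16, and none of the 5 in that of Mrpl20. The RefSeq starts of Mrpl3 and Mrpl16 lie downstream of the gene starts given above, so the ends of these 2 windows, with the marked match of Mrpl3, lie inside the annotated gene. A window of 300 bases (250 before and 50 after the start) was found for 69 of the 78 members. In these windows CCGGAAG was held by 36.2% of member promoters and 9.12% of all 27025 promoters, the NRF1 core GCGCATGC by 11.6% and 2.80%, the YY1 motif AAGATGGC by 17.4% and 2.88%, the Sp1 motif GGGCGG by 49.3% and 35.9%, and TGACGTCA by 2.90% and 1.88%. 37 of the 69 held at least 1 of the first 3, and in 2 of the 69 matches to different motifs overlapped. Member promoters had a median of 58.3% G and C against 52.7% for all promoters. Among the members that fell in LSK KO cells, 8 of 28 held CCGGAAG and 7 of 28 held AAGATGGC, and among the other tested members 15 of 39 and 5 of 39 did. A match is a run of letters and not a shown binding site.

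The HET mean lay between WT and KO for most members. The mean level fell in the order WT, HET, KO for 63 of 76 members, and did so for 24.7% of all genes tested. The transcript length index of the libraries, described below, rose in the same order of genotypes. It was -0.11 ± 0.11 in WT (SD, n = 5), -0.02 ± 0.16 in HET (SD, n = 9) and 0.08 ± 0.14 in KO (SD, n = 9). Its part in the order of the members was not tested. Between HET and WT no member passed the edgeR test and 0.00721% of all genes did (1 gene): 9 members had an unadjusted p under 0.05, all lower in HET, the median log2 fold change was -0.09, and DESeq2 called 1 of the 9 members it gave an adjusted p for. Mrpl3 was the nearest to the threshold, at -0.28 (SE 0.07, edgeR adjusted p = 0.25). Its HET level was under the lowest WT value in 8 of 9 libraries. It was followed by Mrps30 at -0.27 (adjusted p = 0.347). Mrps28, picked after its values were seen, was the 1 member with all 9 HET libraries below all WT libraries (39.1 ± 4.94 CPM, SD, n = 9, and 45.9 ± 1.98 CPM, SD, n = 5), as were 0.108% of all genes. Without the library labelled HET 20-5, 63 of 76 members again fell in the order WT, HET, KO (25.3% of all genes), and no member was called between HET and WT.

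Between KO and HET, 18 of 76 members fell and none rose, where 5.17% of all genes fell, and the members' median was -0.18. The count was 8 without KO library 19-5, 11 without the library labelled HET 20-5 and 10 or 11 without KO 21-3, 22-4, 22-5 or 24-5 or HET 21-6, and it was 9 with the length index described below as a covariate. This comparison uses the same KO libraries as the one with WT. Its largest falls were Mrpl16 at -0.43 (SE 0.08, edgeR adjusted p = 0.00148), Mrpl20 at -0.38 (SE 0.08), Mrps24 at -0.36 (SE 0.10), Mrpl12 at -0.30 (SE 0.08) and Mrps15 at -0.30 (SE 0.09). No member had all 9 KO libraries on 1 side of all 9 HET libraries, and 0.303% of all genes had them all below: Mrpl16 had 37.97 to 51.5 CPM in HET and 28.4 to 39.6 CPM in KO.

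Other genes of mitochondrial translation are given by list, to be read against the 9.28% of all genes that fell in LSK KO cells. Of 5 mitoribosomal proteins with other names, 2 fell: Ptcd3 from 211 ± 15.8 (SD, n = 5) to 172 ± 18.4 CPM (SD, n = 9; -0.30, edgeR adjusted p = 0.00734) and Chchd1 from 115 ± 17.2 to 79.8 ± 12.1 CPM (-0.53, edgeR adjusted p = 0.0165). Of 25 genes for assembly of the particle and modification of its RNA, 2 fell and the median was 0.01: Rcc1l (-0.41) and the GTPase Noa1 (-0.39). Of 15 translation factors and related genes, 2 fell with a median of -0.08: Lrpprc, which binds and stabilises mitochondrial messenger RNAs, went from 237 ± 29.4 to 167 ± 15.9 CPM (-0.50, SE 0.10), and the elongation factor gene Gfm1 from 114 ± 12.8 to 91.1 ± 9.60 CPM (-0.33, SE 0.08). Of 20 genes of mitochondrial aminoacyl-tRNA synthesis, 3 fell with a median of -0.08, among them Yars2 (-0.38) and Mars2 (-0.38).

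None of 8 genes for transcription and replication of mitochondrial DNA was called by edgeR in this comparison (median -0.10), Tfam being at -0.17 with an unadjusted p of 0.0334. Of 11 regulators of mitochondrial genes, 1 rose, near the 9.53% of all genes that rose. It was Mycl, a MYC family transcription factor gene, from 2.86 ± 0.241 CPM in WT (SD, n = 5) to 13.9 ± 6.01 in KO (SD, n = 9, log2 fold change 2.26, SE 0.33). Myc was at -0.30 with an edgeR adjusted p of 0.22 and Pprc1 at -0.28 with 0.106. The RNAs made inside the mitochondrion did not follow the members: of 13 mitochondrial messenger RNAs none was called and 11 lay above 0 (median 0.14), and of the 2 mitochondrial ribosomal RNAs none was called. Of 78 cytosolic ribosomal protein genes tested, 9 fell and none rose, near the 9.28% of all genes that fell, with a median of -0.11.

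Markers of other cells were also measured in the LSK libraries. 4 of 10 stem and multipotent markers rose in KO, where 9.53% of all genes rose, among them Flt3, Kit and Meis1, their summed level being 2891 to 3334 CPM in WT and 3147 to 3835 CPM in KO libraries. Late erythroid markers summed to 109 to 1850 CPM in WT and 116 to 490 CPM in KO, with none of the 9 called. Macrophage markers summed to 60.1 to 541 CPM in WT and 18.4 to 762 CPM in KO. Of these, Folr2 was called lower in KO, where 9.28% of all genes fell. The summed ranges of WT and KO overlapped for both lists. None of these markers was at 0 in all libraries of a group. Of granulocyte-monocyte markers 1 of 7 tested fell (Ctsg, where 9.28% of all genes fell), and hepatocyte markers summed to 13.7 to 22.3 CPM in WT and 11.3 to 53.6 CPM in KO. The part of cell make-up in the members' change was not tested, and in bulk libraries fewer cells of a type and less RNA per cell cannot be told apart.

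The members have short transcripts: the main transcript has a median of 1284 bases (418 to 7300), and 60.3% are under 1500 bases against 26.5% of other protein-coding genes. The balance of short and long transcripts in each library was therefore measured by a length index, the median centred log2 level of non-member genes above 5000 bases minus that of genes under 1500 bases. A higher index means more reads from long and fewer from short transcripts. In LSK libraries the index lay between -0.25 and -0.01 in WT, between -0.24 and 0.24 in HET and between -0.14 and 0.24 in KO. The members' mean centred log2 level went with it: 0.14 ± 0.07 in WT (SD, n = 5), 0.05 ± 0.12 in HET (SD, n = 9) and -0.13 ± 0.09 in KO (SD, n = 9), and over the 23 libraries r was -0.915 and rho -0.873 (r = -0.908 without the 2 libraries farthest in the index). This is a description, as both values come from the same libraries.

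The count depended on how length was treated. With the index as a covariate of the fit, 9 of 76 LSK members fell in KO against WT, where 5.25% of all genes fell, and the median was -0.14. The 9 were Mrpl3 (-0.40), Mrpl20 (-0.45), Mrpl16 (-0.46), Mrpl12 (-0.29), Mrps15 (-0.25), Mrps28 (-0.24), Mrpl37 (-0.26), Mrpl38 (-0.29) and Mrps23 (-0.27), each also called without the covariate. With each library's smoothed dependence on length removed gene by gene, 35 of 76 members fell and 1 rose, where 11% of all genes fell, and the median was -0.25; 29 of the 33 calls were kept.

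In 5 classes of main transcript length, other genes had medians of -0.13 and -0.03 in the 2 classes under 1500 bases, 0.04 and 0.06 in the next 2, and 0.08 from 5000 bases. The members' median lay below that of other genes in each class and did not follow their slope. From the shortest class to the longest it was -0.31 (24 members), -0.24 (22), -0.23 (14), -0.28 (13) and -0.29 (3 members). Of the 13 members in the class just under 5000 bases 6 fell, where 7.15% of other genes of that length fell.

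**Figure D3:**
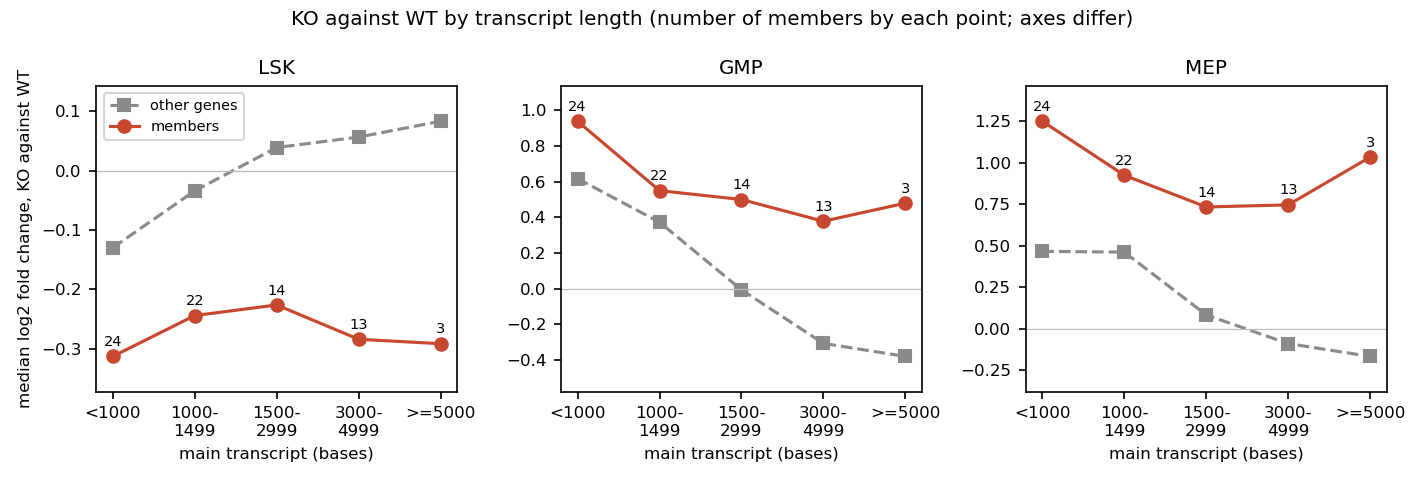
Median log2 fold change, KO against WT, of members and of other genes by length of the main transcript in LSK, GMP and MEP, with the number of members by each point (3 in the longest class). In LSK the members stay between -0.31 and -0.23 while other genes go from -0.13 to 0.08. In GMP and MEP both are highest in the shortest class, and the members lie above 0 in each class. Other genes lie below 0 there in the class just under 5000 bases and in the longest class.

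Libraries of LSK cells also fall into sets by the first number of their titles. KO minus WT in the members' mean centred log2 level was -0.35 in set 19 (2 KO and 1 WT), -0.24 in set 21 (2 and 2), -0.34 in set 22 (3 and 1) and -0.22 in set 24 (1 and 1), and set 20 holds no WT library. The length index was higher in KO than in WT in each of these 4 sets as well. Leaving out WT library 22-8, which had the lowest index, left 16 members called, and leaving out WT library 19-2 left 19.

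In CMP, GMP and MEP the members were not called in any comparison of genotypes by edgeR. In CMP KO against WT, 0 of 76 members were called, where 1.84% of all genes were, and 2 members had an unadjusted p under 0.05. Their median was -0.08, with 47 of 76 below 0. DESeq2 and limma also called 0 members for KO against WT in CMP, GMP and MEP. The 5 members with the smallest p in CMP were Mrpl1 (76.03 ± 15.7 CPM in WT, SD, n = 3, and 56.5 ± 4.59 in KO, SD, n = 4; edgeR adjusted p = 0.259), Mrpl41, Mrps22, Mrpl16 and Mrps18c, all with the lower mean in KO. For Mrps22 all 4 KO libraries lay below all WT libraries (71.9 ± 3.23 CPM, SD, n = 4, and 92.0 ± 16.2, SD, n = 3; edgeR adjusted p = 0.426), as was so for 2 of 76 members and 7.56% of all genes. Mrpl1 had 93.0, 61.9 and 73.2 CPM in WT and 54.8, 62.7, 56.5 and 51.8 CPM in KO, and 3 of the 4 KO libraries lay below all WT libraries. Against HET, edgeR called 0 members (2.19% of all genes), limma 2, both lower (2.11% of all genes lower), and DESeq2 0, and 6 had an unadjusted p under 0.05, Mrpl9 at -0.52 (adjusted p = 0.168) and Mrps28 at -0.43 (0.22) having the smallest p.

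In GMP KO cells 69 of 76 members lay above 0, with a median log2 fold change of 0.62, but none was called (1 had an unadjusted p under 0.05), where 0.204% of all genes were. The members' median lay above 0 in each class of transcript length. In the class just under 5000 bases it was 0.38, and that of other genes was -0.31. From 5000 bases these medians were 0.48 (3 members) and -0.38. The groups overlapped, and the libraries with the highest members' level had the lowest length index. The members' summed level was 3997, 7561 and 7587 CPM in the WT libraries and 12596, 5417 and 13129 CPM in the KO libraries, where the length index was 0.80, -0.46 and -0.32 in WT and -1.49, 0.12 and -1.60 in KO. Mrps21, the member with the smallest p, had 28.3, 53.3 and 44.1 CPM in WT and 196, 41.0 and 214 CPM in KO: the KO library at 41.0 CPM lay among the WT libraries (log2 fold change 1.84, SE 0.79, edgeR adjusted p = 0.754). Mrpl16, Mrpl23, Mrpl34 and Mrpl14 came next, each with 2 of 3 KO libraries above all WT libraries. With the index as a covariate the members' median in GMP was -0.12, and without the 4 libraries whose index lay beyond 1 either way it was -0.25, a value that rests on the 1 KO library left. Spike-in RNAs made up 2.52% to 3.06% of reads in the GMP KO libraries and 0.149% to 0.233% in GMP WT, and with that share as a covariate 13 members were called lower, as were 9.71% of all genes; the share separates the 2 groups, so it and the genotype cannot be told apart. Against HET, edgeR, DESeq2 and limma called 0 members in GMP (0.261% of all genes by edgeR) and 3 had an unadjusted p under 0.05, Mrps27 (1.19, adjusted p = 0.323) and Mrps21 (1.60) having the smallest p.

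In MEP KO cells 74 of 76 members lay above 0 with a median of 0.99, none was called (4 had an unadjusted p under 0.05), and 0.00856% of all genes were (1 gene). The median rested on 1 library. The members summed to 7316, 4891 and 5966 CPM in WT and to 5393, 6455, 6632 and 33365 CPM in KO, the last being KO library 15 with a length index of -1.84. Without it the median was 0.06. With it, the members' median lay above 0 in each class of transcript length. In the class just under 5000 bases it was 0.75, and that of other genes was -0.09. From 5000 bases these medians were 1.03 (3 members) and -0.17. Mrps16 had 44.5, 33.9 and 38.6 CPM in WT and 37.1, 54.7, 52.6 and 506 CPM in KO (log2 fold change 2.06, SE 0.79, edgeR adjusted p = 0.628). Mrpl38 had all 4 KO libraries above all WT libraries, at 44.8, 51.6, 49.0 and 193 against 34.1, 38.8 and 43.3 CPM, and was not called either (1.12, adjusted p = 0.685); 2 of 76 members and 4.07% of all genes were so placed. Mrpl17, Mrps35 and Mrpl34 completed the 5 with the smallest p. Against HET, the 3 tools called 0 members in MEP (0.0171% of all genes by edgeR), 2 had an unadjusted p under 0.05, and Mrps16 and Mrpl15 had the smallest p.

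**Figure D4:**
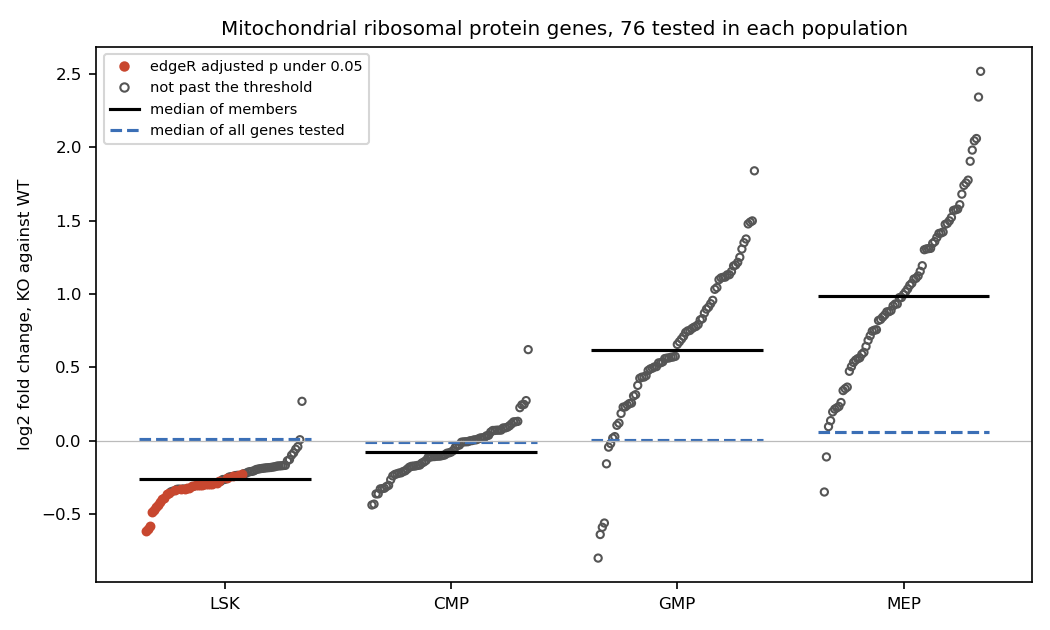
log2 fold change, KO against WT, of each of 76 members in each population, ordered by size; filled points passed an edgeR adjusted p of 0.05, black lines are the members' medians (-0.26, -0.08, 0.62 and 0.99) and dashed lines those of all genes tested. Only LSK has filled points, all below 0.

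HET against WT gave 0 called members in CMP, GMP and MEP, where 0% of all genes were called in each, and no member had an unadjusted p under 0.05. The smallest p belonged to Mrps11 and Mrpl35 in CMP, Mrps31 and Mrpl23 in GMP and Mrpl4 and Mrpl28 in MEP. In GMP limma with quality weights called 62 members lower and 1 higher in HET, where it called 26.1% of all genes lower and 24.8% higher, and edgeR and DESeq2 called none. The GMP HET libraries ranged from 1283 to 15862 CPM in the members' summed level and from -1.69 to 3.17 in the length index; the library at 1283 CPM, HET 8, took 48.4% of its reads from 1 gene.

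The link between the members' level and the length index held within each progenitor population. r was -0.919 over 14 CMP libraries (-0.870 without the 2 farthest), -0.998 over 13 GMP libraries and -0.985 over 14 MEP libraries. Without the libraries beyond an index of 1 it was -0.995 over 9 GMP libraries and -0.956 over 12 MEP libraries. Of the cytosolic ribosomal protein genes 88.8% are under 1500 bases, and their r with the index differed more between populations. It was -0.144 in CMP, -0.811 in GMP and -0.838 in MEP. Without the libraries beyond 1 it was 0.657 in GMP and -0.828 in MEP. The reason was not tested. The highest CMP index was 0.37, and CMP, the population with no library beyond 1, had medians of -0.08 without and -0.10 with the covariate. CMP HET library 8, with an index of 0.36, took 30.2% of its reads from 1 gene and 0.259% from the members. Its mean centred log2 level of cytosolic ribosomal protein genes was the highest in CMP, at 0.44.

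**Figure D5:**
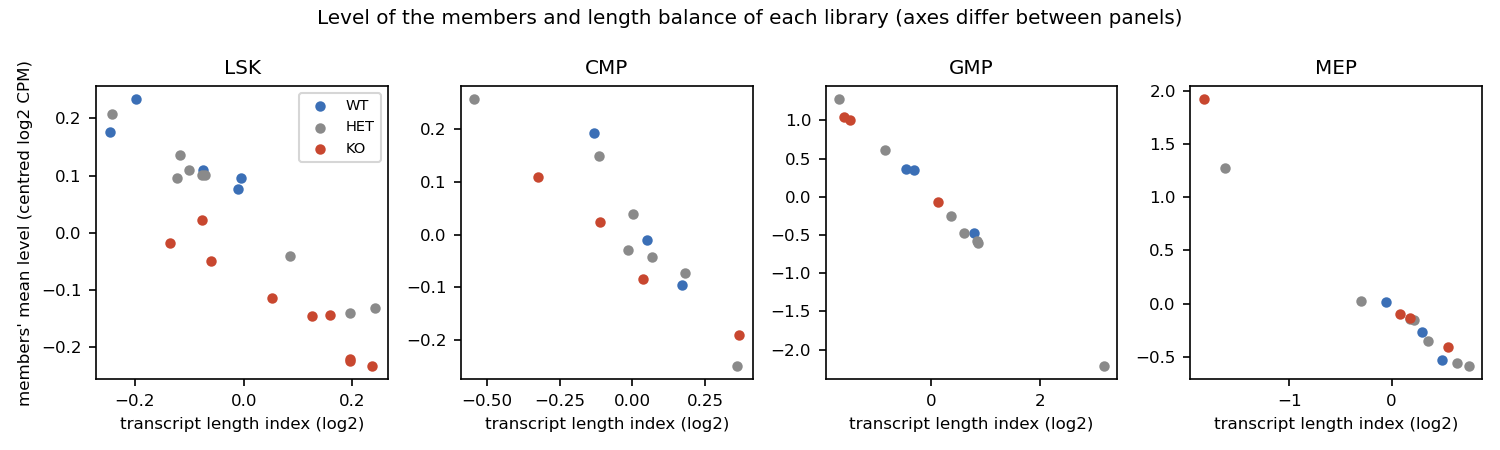
Members' mean centred log2 level against the transcript length index of each library in LSK (23 libraries), CMP (14), GMP (13) and MEP (14), coloured by genotype; axes differ between panels. All panels slope down, and the MEP KO library with an index of -1.84 and the GMP HET library with an index of 3.17 stand at the ends.

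The KO effect was also compared between the progenitor populations. No member was called for a KO effect in GMP differing from that in CMP (0.0169% of all genes called), in MEP differing from CMP (0%) or in GMP differing from MEP (0.414%), with 1, 3 and 0 members at an unadjusted p under 0.05; DESeq2 and limma called 0 as well. Mrpl16 had the smallest p for GMP minus CMP, at 1.85 (SE 0.78, edgeR adjusted p = 0.736), with Mrpl57 next. Mrps16 led MEP minus CMP at 1.88 (adjusted p = 1.00). For GMP minus MEP, Mrpl16 and Mrpl9 had the smallest p. LSK libraries were not set against the progenitors in a test, since the labels give them another series of titles.

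Between populations, compared within WT and within HET and not within KO, 4 of the 76 members were called. In each comparison the share of members called was below that of all genes. For GMP against MEP in HET, 3.95% of members were lower and 1.32% higher, against 5.94% and 11.8% of all genes. For MEP against CMP in HET, 1.32% of members were higher, against 3.86% of all genes. Mrpl52, which encodes a large subunit protein specific to mitochondria, was high in MEP. On the scale shared by the 3 progenitor populations it had 25.6, 50.01 and 78.4 CPM as lowest, median and highest of the 7 MEP HET libraries, 8.21, 11.1 and 15.8 in the 7 CMP HET libraries and 3.64, 8.98 and 28.0 in the 7 GMP HET libraries. Here and below, these 7 GMP HET libraries include HET 8, which held only 439 reads of all members together. MEP HET libraries all lay above CMP HET libraries and overlapped with the highest GMP HET library. The level was 4.09-fold higher in MEP than in CMP (log2 2.03, SE 0.36, edgeR adjusted p = 5.7e-05, where 3.86% of all genes were higher) and 3.85-fold lower in GMP than in MEP (log2 -1.94, SE 0.36, adjusted p = 9.16e-05).

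WT libraries gave the same picture for Mrpl52 with fewer samples: 37.8 ± 6.28 CPM in MEP, 11.8 ± 2.63 in CMP and 11.5 ± 0.33 in GMP (SD, n = 3 each). GMP was lower than MEP (log2 -1.72, SE 0.55, edgeR adjusted p = 0.0487, where 2.18% of all genes were lower), and MEP against CMP missed the threshold (1.67, SE 0.54, edgeR adjusted p = 0.0963). The HET calls held in every alternative fit, and the WT call was lost in 27 of 49 of them, with adjusted p up to 0.156. The members as a whole had medians between 0.13 and 0.55 for MEP against CMP in HET over the fits other than those leaving out 1 library, below the value of Mrpl52.

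In GMP HET against MEP HET, Mrpl9 and Mrps28 were lower as well, where 5.94% of all genes were lower, and Mrpl44 was higher, where 11.8% of all genes were. Mrpl9 had 41.0 ± 19.27 CPM in GMP and 89.4 ± 26.8 in MEP (SD, n = 7 each; log2 -1.11, SE 0.32, edgeR adjusted p = 0.0104). Mrps28 had 18.7 ± 12.3 and 38.9 ± 10.6 CPM (-0.98, SE 0.30, edgeR adjusted p = 0.018; lost with the length offset and without GMP HET 7 or MEP HET 9), and it was also lower in GMP than in CMP, where it had 40.1 ± 7.54 CPM (-1.02, SE 0.30, adjusted p = 0.0339; 2.25% of all genes lower), a call lost with the length offset (adjusted p = 0.169) and without any 1 of CMP HET 1, 4, 9 or 10 or GMP HET 7 or 9. Mrpl44, which carries a ribonuclease III-like fold, had 149 ± 140 CPM in GMP HET and 68.2 ± 17.5 in MEP HET (1.15, SE 0.34, edgeR adjusted p = 0.015), a value that was no longer called without GMP HET library 7 or with the replicate number as a block. In WT, Mrpl44 had 178 ± 48.5 CPM in GMP, 75.4 ± 6.51 in CMP and 63.2 ± 15.3 in MEP (SD, n = 3 each), not past the threshold against either (adjusted p = 0.347 and 0.0824).

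For GMP against CMP in WT, 0 members were called (1.03% of all genes) and the median was 0.45, which became -0.06 with the length index as a covariate. For MEP against CMP in WT, 0 were called (3.1% of all genes) with a median of 0.19, and in each of these comparisons 1 member had an unadjusted p under 0.05. DESeq2 called 0 in both. limma with quality weights called 47 members higher and 4 lower in the first of these (27.7% and 29.8% of all genes) and 3 higher in the second (8.73% of all genes), so the count in GMP depended on the tool. The smallest p in the first belonged to Mrpl44 and Mrps6, and in the second to Mrpl52 and Mrpl47.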

How the data were processed

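RNA of 64 sorted libraries was sequenced with a Smart-seq2 protocol and Nextera XT libraries, per the labels' protocols, without molecular identifiers or strand. The deposited values are read counts per gene made by the authors; featureCounts and GRCm38 (mm10) are named per the submitters' processing notes, and no aligner or version is given by those notes or the labels. Genes were matched by identifier to GENCODE M21 on GRCm38. Each population was fitted over all 3 genotypes in edgeR 4.0.16 (R 4.3.3; TMM, filterByExpr with a minimum count of 10 and a minimum total of 15, robust quasi-likelihood, Benjamini-Hochberg over all genes tested). CMP, GMP and MEP were also fitted jointly over 11829 of 11902 shared genes. DESeq2 1.42.0 and limma 3.58.1 served as alternatives. The main transcript is the one with the longest coding sequence. Counting without strand cannot separate a member from an overlapping gene: 33 members overlap exons of another gene and 7 share over 25% of their exon bases.

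Named members are, for KO against WT, up to 10 called in each direction by fold change and the 5 with the smallest p; for other comparisons up to 5 called each way, or the 2 with the smallest p; and the 5 highest and 3 lowest WT levels per kb. The members and the other gene lists were chosen with earlier results of these data known. The scripts were tested on simulated data. Some genes of the other lists are counted but not reported here by name.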

Additional observations from a re-analysis of the deposited data

Results flagged for a closer look

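In 46 groups of libraries tested for a library far from the others, 4 had one; chance gives about 1 in 20 groups. The members' summed level was 19513 CPM in MEP HET library 8, the nearest HET library having 7293 CPM. It was 33365 CPM in MEP KO library 15, the nearest KO library having 6632 CPM. In LSK WT, Mrpl16 had 38.1 CPM in library 24-10 with the nearest at 51.4 CPM, and Mrps30 had 138 CPM in library 22-8 with the nearest at 124 CPM.

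Spike-in RNAs, which are not part of the gene counts, made up 2.70%, 2.52% and 3.06% of reads in the 3 GMP KO libraries, where the highest GMP WT library had 0.233%.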

How the results depend on the processing

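In LSK KO against WT, where 33 members were called, 9 were called with the length index as a covariate. The count was 21 with no low-count filter and 21 with a spike-in covariate. It was 25 with sex as a covariate, 44 with limma and 16 to 38 with 1 library left out. In LSK KO against HET (18), 9 were called with the length index, 9 with no low-count filter and 11 with the 2 genotypes alone. The count was 11 with the spike-in share, 15 with sex and 23 with limma. With 1 library left out, 8 to 21 were called. Fewer than 12 were called without KO 19-5, 21-3, 22-4, 22-5 or 24-5 or HET 20-5 or 21-6. In LSK HET against WT (0), DESeq2 called 1, and 0 to 1 were called with 1 library left out. The cause of these differences was not tested.

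In CMP KO against HET (0), limma called 2, and 0 to 1 were called with 1 library left out (1 without HET 8). In GMP, the spike-in share gave 13 for KO against WT and 6 for KO against HET, and limma gave 63 for HET against WT (0 in each otherwise). For GMP against CMP in HET (1), DESeq2 gave 3, RLE scaling 2, the length index 3, the length offset 0, limma 9, no filter 2, and leaving out libraries beyond a length index of 1, an alternative chosen after seeing the data, 3; 1 library left out gave 0 to 3. Libraries of different populations are tied only by their titles, in which series, genotype and number can be the same. Same-numbered libraries correlated above 0.1 in 9 of 13 CMP and GMP pairs, 12 of 14 CMP and MEP pairs and 5 of 13 GMP and MEP pairs. Differently numbered libraries did so in 51 of 169, 49 of 182 and 74 of 169 pairs. The main joint fit did not use the number, and the replicate block gave 2 for GMP against CMP in HET. For GMP against CMP in WT (0), the length index gave 1, limma 51 and the libraries within 1 gave 9. For GMP against MEP in HET (4), the length index gave 14 and limma 34. For GMP against MEP in WT (1), DESeq2 gave 2, RLE scaling 0, the length index 6, the length offset 2, limma 38 and the libraries within 1 gave 9; 1 library left out gave 0 to 2. For MEP against CMP in HET (1), the length index gave 5, the length offset 2 and limma 13. For MEP against CMP in WT (0), the length index gave 1, the length offset 1, limma 3 and the libraries within 1 gave 1; 1 library left out gave 0 to 1. Among the medians over the members, that of GMP KO against WT went from 0.62 to -0.12 with the length index, -0.25 without libraries beyond 1 and -1.9985 with the spike-in share, and that of MEP KO against WT from 0.99 to -0.18 with the title series as a block, under which KO libraries 13 and 15, of a series with no WT or HET, no longer bear on the comparison; in LSK KO against WT the median stayed between -0.29 and -0.14 over the 34 alternatives.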
